A study of Mus musculus with 4 samples.

Results

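The comparison is between mesenchymal stroma cells (MSCs) and CD8 T cells that were sorted from the same kind of tumor, the subcutaneous *Bcr-abl*+ tumor of wild-type (Wt) mice. It uses 2 of the 4 arrays of the series, 1 for each cell type, and the pair of arrays from *Sipa1* knockout (*Sipa1*-/-) mice is set beside it near the end. The recipients were C57BL/6Ncr mice aged 8 weeks. They received 15000 GFP+ hematopoietic progenitor cells (HPCs) that expressed *Bcr-abl*, placed under the skin in Matrigel, and the tumors were taken on day 12. The MSC gate was GFP-, CD45-, Ter119- and CD31-, so that it is defined by what the cells lack. The CD8 T gate was GFP-, TCRb+ and CD8+. Both gates leave out GFP+ cells, the label of the injected cells. The labels give 5 mice per genotype and do not say whether RNA of the 5 was pooled. With 1 array per cell type the spread between animals is unknown, and values are given without tests, p-values or errors.

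Fluorescence of spots that were not controls was put on the log2 scale and shifted so that 0 is the 75th percentile of its array. A level below is a value on this scale, and a ratio is the level in MSCs minus that in CD8 T cells, so that 1 is 2-fold and 3 is 8-fold. Spots well above background made up 64.7% of those on the MSC array and 60.3% on the CD8 T array, the 75th percentile lay 19.7 and 18 times the median background, and no spot was saturated. All 4 arrays were on 1 slide and in 1 scan. Precision is limited by having so few arrays. Over the 10 spots of a probe the SD of the ratio was 0.0317 (median of 291 probes), which is spot noise alone. Where a gene was not well above background on 1 array, its ratio was computed against the lowest signal well above background there and is given as a bound.

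MSCs are the fibroblast-like cells of a tissue. They lay down collagen and other extracellular matrix, and they release chemokines and growth factors for blood cells. CD8 T cells recognise peptides on MHC class I through the T-cell receptor and its CD3 chains, and they kill with granzymes, perforin and Fas ligand. Tumors hold both, so the cells meet through chemokines, cytokines and contact molecules.

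Of 16377 genes with a symbol that passed the array flags on at least 1 of the 2 arrays, 3406 were at least 2-fold higher in MSCs, which is 20.8% of those measured, and 2106 were at least 2-fold higher in CD8 T cells (12.9%). At 8-fold the counts were 1117 (6.82%) and 401 (2.45%). The remaining 10865 genes, or 66.3%, lay within 2-fold, and the median ratio of all genes was -0.0035. Of the genes measured, 1576 were well above background on the MSC array alone and 442 on the CD8 T array alone. The highest ratio was 7.10 and the lowest -9.85. The brightest genes were largely common to both arrays, since 76 of the 100 brightest on one were among the 100 brightest on the other. The split depended on the scaling. Of the genes past 2-fold, 61.8% were higher in MSCs, against 50.6% when the arrays were shifted to their medians and 78.5% with the authors' series matrix values.

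**Figure D1:**
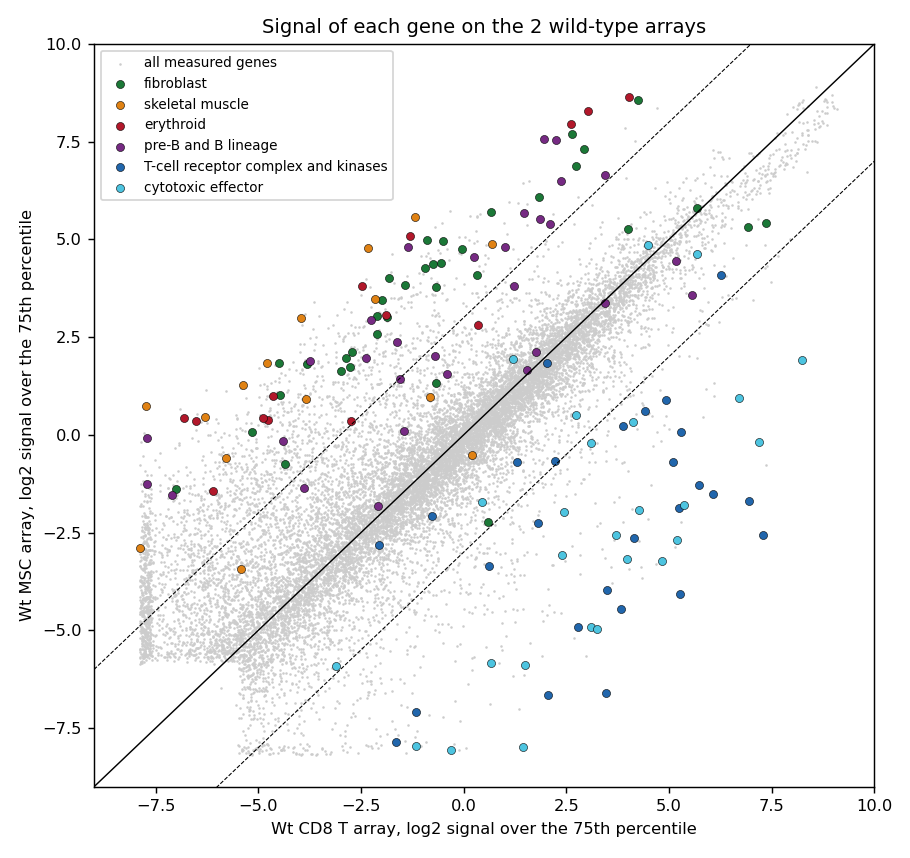
Level of each of 16377 genes on the Wt CD8 T array (x axis) and the Wt MSC array (y axis), as log2 signal over the 75th percentile of the array, with genes of 6 lists in colour. The solid line marks equal levels and the dashed lines 8-fold. T-cell and cytotoxic genes lie below the lower dashed line for the most part, and fibroblast, muscle, erythroid and B-lineage genes above the upper one.

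Genes of the sort gates were read first, together with *Cd3e*, *Cd4* and *Pdgfra*, which are in neither gate. *Cd8b1*, which encodes the beta chain of CD8, had a level of -2.56 on the MSC array and 7.29 on the CD8 T array, a ratio of -9.85 and the lowest of all genes. *Cd8a* was at 3.46 in CD8 T cells and not well above background in MSCs, which puts it at least 639-fold higher in the T cells. *Cd3e* of the T-cell receptor complex had levels of -2.63 and 4.15 in the same order of arrays. *Cd4* had means of -2.82 on the MSC array and -2.05 on the CD8 T array, but its 2 probes were unlike. One was at 0.18 on the MSC array and 0.73 on the CD8 T array, well above background on both. The other was at -5.83, not well above background, on the MSC array and at -4.83 on the CD8 T array. *Pdgfra*, a receptor that marks many MSCs, had 3.01 on the MSC array and -1.88 on the CD8 T array and a ratio of 4.88. Its only probe carried a flag for uneven background on the MSC array. *Ptprc*, which encodes CD45, was 12.3-fold lower in MSCs, and yet its 2 probes stood at -1.17 and 2.68 there, both well above background, against 2.49 and 6.26 in CD8 T cells. *Pecam1* (CD31) was low on both arrays, -1.47 on the MSC array and -1.05 on the CD8 T array. *Cd8b1*, *Cd8a* and *Cd3e* were thus far higher on the CD8 T array and *Pdgfra* on the MSC array. RNA of CD45 was also measured on the array of the cells sorted to lack CD45. In sorted bulk RNA, fewer cells of a type and less RNA per cell cannot be told apart. *Sipa1* itself had similar levels, 5.03 and 3.05 for its 2 probes in MSCs and 5.40 and 3.43 in CD8 T cells.

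Among genes well above background on both arrays and brighter than the median gene, the 10 with the highest ratio were led by *Acta1*, the actin of skeletal muscle. It had a level of 4.78 in MSCs against -2.32 in CD8 T cells, a ratio of 7.10. *Myh8*, *Tnnc2* and *Tcap*, which also encode parts of the muscle sarcomere, had ratios of 7.04, 6.76 and 6.74, and that of *Myh8* was 3.37 when no flags were used. *Slc4a1*, the anion exchanger of red cells, was at 6.40 and *Hbb-b1*, a beta globin, at 6.36. Of the 4 others, *Tnxb*, which encodes the matrix protein tenascin X, had a ratio of 6.35. The remaining ones were *Cyp2f2* (6.94), a cytochrome P450, *Slc38a5* (6.56), an amino acid transporter, and *Crhbp* (6.36), a binding protein of corticotropin-releasing hormone. Muscle or red-cell genes made up 6 of the 10.

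The 10 genes at the other end were T-cell genes for the most part. After *Cd8b1* came *Cd3g* with -4.07 on the MSC array and 5.28 on the CD8 T array, and *Cd3d* with -1.70 on the MSC array and 6.95 on the CD8 T array, both chains of CD3. *Gzmb*, which encodes the protease granzyme B, was at 4.84 in CD8 T cells and -3.22 in MSCs. *Cxcr3*, the receptor of Cxcl9 and Cxcl10, was at 5.16 and -2.87. The others were the kinase gene *Txk* (-8.29), *Crtam* (-8.21), *Ms4a4b* (-8.14), *Sidt1* (-8.02) and the chemokine gene *Xcl1* (-8.01). All 10 ratios lay between -9.85 and -8.01, farther from 0 than any of the ratios on the MSC side. Of the genes not well above background in MSCs, *Cd8a*, *Sh2d1a*, *Fasl*, *Gzmk* and *Cd27* had the largest bounds, at least 241-fold for *Sh2d1a* and 149-fold for *Cd27*. On the MSC side they were *Sema3c*, *Cox8b*, *Mb*, *Myoz1* and *Lgr5*, at least 104-fold for the guidance factor *Sema3c* and 68.9-fold for *Lgr5*. *Cox8b*, *Mb* (myoglobin) and *Myoz1* are genes of striated muscle.

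**Figure D2:**
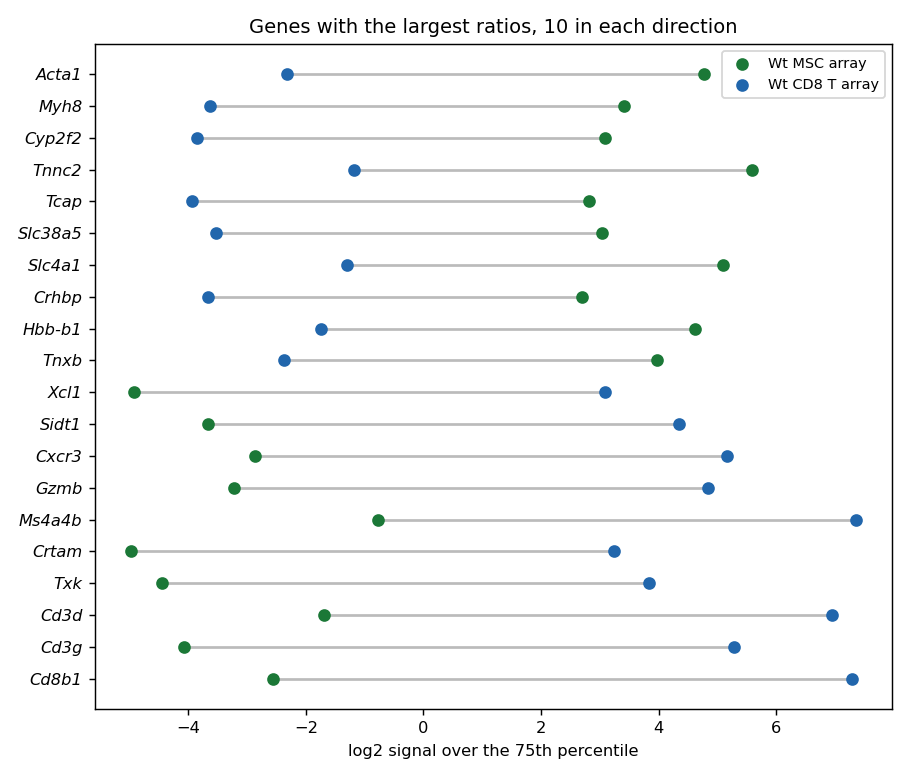
Levels on the Wt MSC array (green) and the Wt CD8 T array (blue) of the 10 genes with the largest ratio in each direction, on the log2 scale with 0 at the 75th percentile. For the upper 10 genes the MSC array lies between 2.70 and 5.59, and for the lower 10 the CD8 T array lies between 3.09 and 7.36.

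Promoters were taken from RefSeq, 250 bases before to 50 after each start, in the build GRCm38.p6, and 12961 of the measured genes had at least 1. Those of genes at least 8-fold higher in CD8 T cells held few CpG dinucleotides, a median of 6 per promoter, against 11 for genes at least 8-fold higher in MSCs, 19 for genes within 2-fold and 7 for all promoters. The letters TGTGGT, the core of the sites bound by Runx factors, were present on either strand in 26.1% of 379 promoters of the CD8 T genes and in 14.1% of 1022 promoters of the MSC genes. They were present in 13.7% of promoters of all measured genes and in 16.8% of all promoters. Within promoters of at most 5 CpG the share was 35% of 183 for CD8 T genes, 22% of 304 for MSC genes and 21.2% of 1877 for genes within 2-fold. For promoters of 6 to 15 CpG it was 25%, 13.3% and 16% in that order, and over 15 CpG it was 10.4%, 8.53% and 9.53%. The letters CCGGAAG of Ets factors were present in 18.3% of promoters of genes within 2-fold and in 5.01% and 2.94% of those of the CD8 T and MSC genes. Their shares were 14.3% for all measured genes and 8.86% for all promoters. These letters contain a CpG and were not read within classes of CpG. A difference in the motif therefore cannot be told apart from one in CpG content. CAGCTG, an E-box of myogenic factors, was present in 21.3% of promoters of the MSC genes and in 17.7% of those of the CD8 T genes, against 16.1% of all measured. The letters AGATAA of Gata factors (6.75% and 10.6%, against 7.66%), TATAAA (12.3% and 12.1%, against 9.04%), TGANTCA of AP-1 (8.51% and 7.39%, against 5.91%) and TTCNNNGAA of STAT5 (7.83% and 10.8%, against 7.27%) were searched likewise, the first value for MSC genes and the second for CD8 T genes. So were the EBF site by name (1.76% and 1.06%, against 1.04%) and, also by name, the CArG box (2.15% and 1.58%, against 1.49%) and the MEF2 site (0.489% and 0.0%, against 0.466%). A match says only that the letters are there. The patterns can overlap, and overlaps were counted for each motif on its own.

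4 promoters are shown because they belong to genes that separate the populations and hold one of these motifs, the CD8 T genes *Gzmb* (chr14:56262285-56262584, minus strand) and *Cxcr3* (chrX:101734098-101734397, minus strand) with Runx letters in capitals, the muscle gene *Acta1* (chr8:123894726-123895025, minus strand) with a CArG box in capitals, and the erythroid gene *Alas2* (chrX:150547167-150547466, plus strand) with Gata letters in capitals.
Gzmb: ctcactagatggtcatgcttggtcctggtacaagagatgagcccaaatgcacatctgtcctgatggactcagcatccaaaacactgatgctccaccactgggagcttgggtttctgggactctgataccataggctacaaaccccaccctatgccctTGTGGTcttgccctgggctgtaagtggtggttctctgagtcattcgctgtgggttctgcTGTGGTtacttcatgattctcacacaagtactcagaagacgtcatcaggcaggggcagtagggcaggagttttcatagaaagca
Cxcr3: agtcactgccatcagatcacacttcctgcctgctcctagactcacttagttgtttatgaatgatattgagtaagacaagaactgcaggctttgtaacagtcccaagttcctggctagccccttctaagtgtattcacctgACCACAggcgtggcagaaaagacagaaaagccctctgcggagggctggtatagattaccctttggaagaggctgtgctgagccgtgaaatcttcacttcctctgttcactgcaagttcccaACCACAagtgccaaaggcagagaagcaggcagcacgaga
Acta1: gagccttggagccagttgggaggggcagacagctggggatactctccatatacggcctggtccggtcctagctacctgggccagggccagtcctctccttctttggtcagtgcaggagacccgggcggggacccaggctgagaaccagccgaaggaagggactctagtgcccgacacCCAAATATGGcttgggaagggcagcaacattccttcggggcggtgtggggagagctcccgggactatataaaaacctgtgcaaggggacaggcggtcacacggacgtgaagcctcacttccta
Alas2: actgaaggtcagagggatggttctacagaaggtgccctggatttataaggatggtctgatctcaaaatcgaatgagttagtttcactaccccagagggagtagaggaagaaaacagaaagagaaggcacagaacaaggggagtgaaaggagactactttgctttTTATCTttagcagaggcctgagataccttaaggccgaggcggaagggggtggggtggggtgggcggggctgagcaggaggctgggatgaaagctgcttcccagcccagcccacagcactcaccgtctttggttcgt
*Gzmb* and *Cxcr3* held 2 Runx matches each, both in the gene's own orientation in *Gzmb* and both on the opposite strand in *Cxcr3*. *Acta1* and *Alas2* held 1 match each of the motif named for them, and that of *Alas2* is on the opposite strand. Only the named motif is in capitals. Letters of other motifs are left unmarked, such as CAGCTG and TATAAA in *Acta1* and TGAGTCA, an AP-1 match, in *Gzmb*.

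Stromal genes were higher on the MSC array almost throughout. Of the fibroblast list, 36 of 37 genes were measured, 32 were at least 2-fold higher in MSCs, 3 at least 2-fold higher in CD8 T cells, and the median ratio was 4.81 against -0.0035 for all genes, of which 20.8% and 12.9% passed 2-fold in those directions. Several genes stand in more than 1 list, such as *Col1a1*, *Dcn*, *Fn1*, *Postn* and *Mmp2*. The middle of the list was narrow, with quartiles of 4.17 and 5.22. *Pdgfrb*, the other receptor of platelet-derived growth factor, had 1.74 on the MSC array and -2.77 on the CD8 T array. *Dcn*, which encodes the proteoglycan decorin, had 7.71 on the MSC array and 2.63 on the CD8 T array. *Dpep1*, a dipeptidase gene, had the largest ratio of the list, 6.33, and the matrix metalloprotease gene *Mmp2* had 5.82. The 3 genes higher in CD8 T cells were *Thy1* (-1.96), *S100a4* (-1.61) and *Nt5e* (-2.84), which T cells are also known to express, and *Vim* was nearly equal at 0.11. These 4 were the exceptions. They, the C1q genes, *Thbs1*, *Thbs2*, *Mmp9*, *Mmp13*, *Irf4*, *Ckm* and *Actn3* were named after their values were seen.

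Of the collagens, 20 of 20 were measured and 20 were at least 2-fold higher in MSCs, 17 of them at least 8-fold, with a median ratio of 4.25. Shares over all genes, for these and the other counts of the paragraph, were 20.8% and 6.82%. *Col1a1*, *Col1a2* and *Col3a1*, which make the fibrils of types I and III, were the brightest, at 6.88, 8.56 and 7.32 in MSCs. They were also measured well above background in CD8 T cells, at 2.74, 4.24 and 2.93. *Col5a1* (5.24) and *Col8a1* (5.23) had the largest ratios. Matrix proteoglycans and glycoproteins had a median ratio of 4.14, and 26 of 27 measured were at least 2-fold higher in MSCs, among them *Lum* (5.87), *Bgn* (3.70), *Ogn* (6.08) and *Thbs2* (5.78). *Thbs1* was the exception with -0.17. Enzymes that cross-link, cut or protect the matrix had a median of 4.08, with 26 of 27 at least 2-fold higher in MSCs. The lysyl oxidase genes *Lox*, *Loxl1* and *Loxl2* had 5.22, 5.22 and 4.01. *Mmp9*, a metalloprotease that granulocytes store, differed by 0.01 only, and *Mmp13* was at least 35-fold higher. On the CD8 T array, 1 of 36 fibroblast genes and 1 of 20 collagens were not well above background. The levels there ran from -6.31 to 4.24 for the collagens. The part of stromal RNA in the CD8 T values was not tested.

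Complement genes split into a pair of groups. 8 of 12 were at least 2-fold higher in MSCs, led by *C4b* (5.02) and *Serping1* (5.00), an inhibitor of C1. For the counts of this paragraph, 20.8% of all genes passed 2-fold toward MSCs and 12.9% toward CD8 T cells. *C3*, with 8.35 on the MSC array, 4.72 on the CD8 T array and a ratio of 3.64, is the central complement protein. The 3 chains of C1q, which macrophages make, were higher in CD8 T cells, at -2.20 for *C1qa*, -1.87 for *C1qb* and -1.92 for *C1qc*. Pericyte and smooth muscle genes were less uniform, with 9 of 13 at least 2-fold higher in MSCs and a median of 2.13. *Des*, the intermediate filament of muscle, had 4.76, *Cspg4* had 2.13 and *Rgs5* only -0.05. *Acta2*, the smooth muscle actin, had a mean ratio of 1.24, but its 3 probes gave -0.70, 1.85 and 2.58 and the brightest of them went toward CD8 T cells. *Hox* genes, the transcription factors that keep a record of body position in fibroblasts, were higher in MSCs for 17 of 24 measured, 0 went the other way and 13 were not well above background in CD8 T cells. *Hoxc8* was at least 33.4-fold higher and *Hoxc6* had 1.17 on the MSC array and -3.67 on the CD8 T array.

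**Figure D3:**
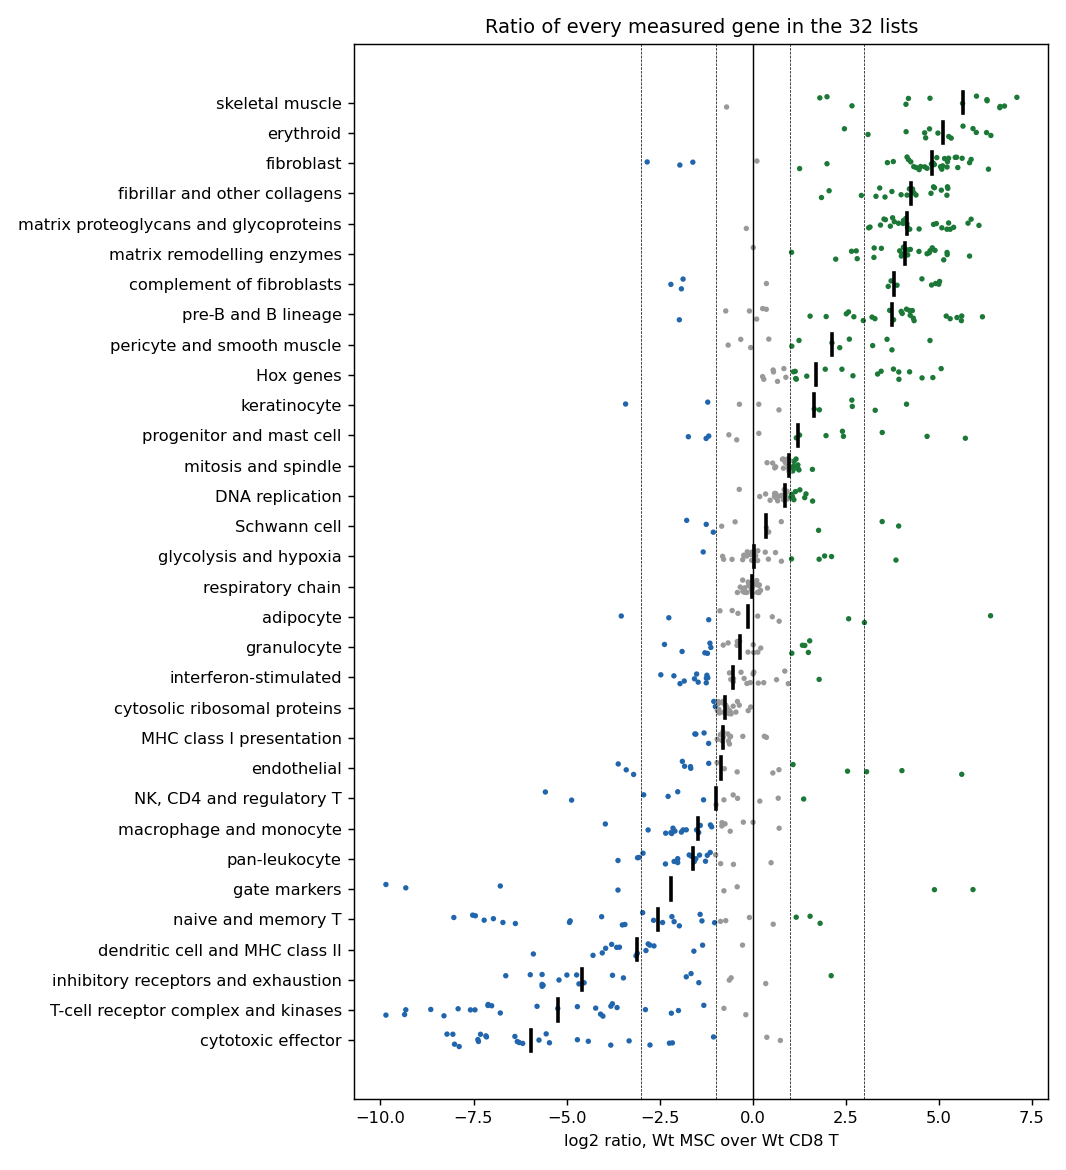
Ratio of every measured gene in 32 lists, on the log2 scale as Wt MSC over Wt CD8 T. Each point is a gene (green at least 2-fold higher in MSCs, blue at least 2-fold higher in CD8 T cells, grey within 2-fold), black bars are list medians, and dashed lines mark 2-fold and 8-fold. Medians run from -5.96 for cytotoxic effectors to 5.64 for skeletal muscle.

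On the CD8 T side, 25 of the 27 genes of the T-cell receptor complex and its kinases were at least 2-fold higher in CD8 T cells, 21 at least 8-fold, and the median ratio was -5.24. Shares over all genes were 12.9% and 2.45%. *Cd2*, an adhesion receptor also found on other lymphocytes, was at 4.08 in MSCs against 6.26 in CD8 T cells. *Sit1* was nearly equal, 1.83 on the MSC array and 2.02 on the CD8 T array. Those 2 genes were singled out after their values were seen, as the brightest of the list on the MSC array. The levels of the list in MSCs ranged from -7.86 to 4.08, and 4 of 27 were not well above background there, *Cd8a* among them.

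Cytotoxic genes had a median of -5.96, the lowest of all the lists except with genes above the median signal (-6.29 for the T-cell receptor list) and with normexp (-4.34, above that of the T-cell receptor list), with 24 of 26 at least 2-fold higher in CD8 T cells. *Gzma*, granzyme A, was at 6.70 in CD8 T cells and 0.96 in MSCs. *Ifng*, interferon gamma, had -3.19 on the MSC array and 3.98 on the CD8 T array. *Ccl5*, a chemokine that effector T cells store, was the brightest of the list in CD8 T cells at 8.23, with 1.91 in MSCs. *Gzmc* was far lower, at -3.10 in CD8 T cells. Receptors that restrain T cells and factors of exhaustion had a median of -4.60, and 16 of 20 were at least 2-fold higher in CD8 T cells. For this and the cytotoxic list the share over all genes was 12.9%. *Pdcd1*, which encodes PD-1, had -4.60 on the MSC array and 2.03 on the CD8 T array. *Ctla4* (-0.99) and *Lag3* (0.20) were at these levels in CD8 T cells, with ratios of -4.67 and of -5.63 or beyond, since 1 of the 2 *Lag3* probes was not well above background in MSCs and the other gave -6.12. *Havcr2*, or Tim-3, had a ratio of -4.99 and *Cd160* a bound of at least 62.9-fold. *Irf4* was the only one of the list at least 2-fold higher in MSCs (2.11), a transcription factor that B-lineage cells also use.

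Of genes of naive and memory T cells, 21 of 28 were at least 2-fold higher in CD8 T cells and 3 in MSCs, with a median of -2.54. *Ccr7*, which guides cells to lymph nodes, had 0.16 on the MSC array and 4.22 on the CD8 T array, and *Tcf7*, a factor of naive and memory cells, had a ratio of -6.38 or beyond, 1 of its 2 probes being not well above background in MSCs. The effector chemokine receptor *Cxcr3* and *Il2rb*, a chain of the receptors for IL-2 and IL-15, had the largest ratios (-8.03 and -7.52). *Il7r* was bright on both arrays, 3.58 on the MSC array and 5.55 on the CD8 T array. Genes of NK, CD4 and regulatory T cells were mostly dim on both arrays. 6 of 13 were at least 2-fold higher in CD8 T cells, against 12.9% of all genes, with *Ncr1* at -3.59 and *Klrb1c* at -0.10 there. *Gata3*, which CD8 T cells also express, was at 3.33. The part of NK or CD4 T-cell RNA was not tested.

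Genes that lie next to each other on a chromosome at times stood out together. In the order of RefSeq genes that were measured, 19 runs of at least 3 neighbours were all at least 8-fold higher in MSCs and 8 runs in CD8 T cells. Single genes at least 8-fold higher made up 6.82% and 2.45% of those measured. Whether the numbers of runs differ from what these shares give was not tested. The longest on the MSC side was that of 5 glutathione transferase genes, with ratios of 3.76 for *Gstm6*, 3.74 for *Gstm3*, 5.02 for *Gstm2*, 3.87 for *Gstm1* and 3.50 for *Gstm4*. Of the 5 runs of exactly 4, the 2 with the largest median ratio are given. They were the carbonic anhydrase genes *Car13* (4.20), *Car1* (at least 4.65), *Car3* (6.39) and *Car2* (5.17), and the complement protease genes *C1ra* (4.54), *C1s1* (4.91), *C1rb* (4.82) and *C1s2* (4.86). On the CD8 T side the longest run was 6 *Klra* genes, which encode Ly49 receptors of NK cells and some T cells. *Klra7* was at -6.97, *Klra9* at -6.42, *Klra4* at -5.34 and *Klra8* at -4.87. *Klra5* and *Klra6* were not well above background in MSCs and at least 25.7-fold and 30.9-fold higher in CD8 T cells. Next came 5 other *Klr* genes, *Klre1* (-6.42), *Klrd1* (-7.15), *Klrk1* (-6.27), *Klrc3* (at least 54-fold) and *Klrc1* (at least 26.2-fold). The third was *Cd3g*, *Cd3d* and *Cd3e*, with -9.35, -8.65 and -6.78, which had the largest median of the runs of 3. *Gstm*, *Klra*, *C1r*, *C1s* and globin genes have near-identical copies, so that signal of one may have been read from another. Of the 2 *Car1* probes, 1 was not well above background in CD8 T cells, and the other gave 3.73.

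Genes of cells other than stroma were also higher on the MSC array, where 20.8% of all genes were at least 2-fold higher. Skeletal muscle genes had a median of 5.64, the highest of all the lists except with no flags (4.47, below 5.12 for erythroid genes) and with normexp (3.68, below 4.11 for fibroblast genes), with 14 of 15 measured at least 2-fold higher in MSCs and levels there between -3.43 and 5.59. *Ckm*, muscle creatine kinase, had 1.85 on the MSC array and -4.79 on the CD8 T array and *Actn3* 1.27 on the MSC array and -5.38 on the CD8 T array. *Myh1* and *Myh4*, fast myosins, were at 0.45 and -0.58 in MSCs, the latter a mean of unlike probes. One *Myh4* probe was at 2.95 in MSCs with a ratio of 6.78. The other was at -4.11 with a ratio of 1.45, a bound. *Pax7*, *Myod1* and *Myf5*, the factors of muscle stem and precursor cells, passed the flags on neither array. The erythroid list had a median of 5.12, and all 14 measured of 16 genes were at least 2-fold higher in MSCs. *Hba-a1* and *Hba-a2*, the alpha globins (the first with a flag on 1 array), were at 8.29 and 8.64 in MSCs and at 3.03 and 4.02 in CD8 T cells. *Alas2*, the first enzyme of heme synthesis in red cells, had 3.81 on the MSC array and -2.47 on the CD8 T array. The gate of the MSCs left out Ter119+ cells. The part of muscle and erythroid RNA in the ratios of the MSC array was not tested.

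Of the pre-B and B-lineage list, 24 of 30 genes were at least 2-fold higher in MSCs, 1 at least 2-fold higher in CD8 T cells, and the median was 3.73. Shares over all genes, also for the pan-leukocyte list below, were 20.8% and 12.9%. *Cd79b*, a chain of the B-cell receptor, had 6.65 on the MSC array and 3.45 on the CD8 T array. *Igll1*, part of the surrogate light chain of pre-B cells, had the largest ratio, 6.17, followed by *Erg* (5.61), and *Cd79a* was at 4.33. *Vpreb1*, the other part of the surrogate light chain, was at 7.57 in MSCs against 1.96 in CD8 T cells. Genes of mature B cells were near equal, as *Ms4a1* had a ratio of 0.11 and *Cd22* 0.27. *Vpreb1*, *Ms4a1* and *Cd22* were named after their values were seen. Pan-leukocyte genes were higher in CD8 T cells for 18 of 22, with a median of -1.61, but were measured well above background in MSCs for all 22, at levels from -0.94 to 6.73. *Cd53* had -0.02 on the MSC array and 2.33 on the CD8 T array, *Laptm5* a ratio of -3.09 and *Cd37*, a tetraspanin of B cells, 0.49. The CD45- gate is meant to leave out leukocytes, and the part of their RNA in the ratios of the MSC array was not tested.

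Genes of the cell cycle were slightly higher on the MSC array, where 20.8% of all genes were at least 2-fold higher. Of DNA replication genes, 10 of 28 were at least 2-fold higher in MSCs and 0 in CD8 T cells (median 0.87), and 27 of 28 had a ratio above 0. Mitotic genes had a median of 0.98, quartiles of 0.86 and 1.09 and a ratio above 0 for 28 of 28, and 10 of them passed 2-fold. *Mki67*, a marker of dividing cells, had 5.71 on the MSC array and 4.55 on the CD8 T array. *Top2a* had 3.53 on the MSC array and 2.54 on the CD8 T array and *Cdk1*, the kinase of mitotic entry, 1.49 on the MSC array and 0.66 on the CD8 T array. *Mcm2*, *Mcm3* and *Mcm4* of the replicative helicase had ratios of 0.62, 0.47 and 0.19, the last of which turned to -0.04 with the median shift, and *Uhrf1* and *Ttk* the largest, 1.61 and 1.60. Both arrays carried these transcripts well above background.

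Genes of antigen-presenting cells were higher on the CD8 T array, where 12.9% of all genes were at least 2-fold higher. In the list of dendritic cells and MHC class II, 15 of 16 were at least 2-fold higher in CD8 T cells (median -3.12). *Cd74*, the invariant chain, had 3.57 on the MSC array and 6.44 on the CD8 T array, *H2-Aa* 0.56 on the MSC array and 4.51 on the CD8 T array and *H2-Ab1* 3.51 on the MSC array and 6.64 on the CD8 T array. *Clec9a*, a receptor of cross-presenting dendritic cells, had a ratio of -4.29, and *Ccr9*, which some T cells also express, -5.89. Macrophage and monocyte genes were at least 2-fold higher in CD8 T cells for 15 of 22 and in MSCs for 0, with a median of -1.48. *Adgre1* (F4/80) had -2.47 on the MSC array and -0.33 on the CD8 T array and *Csf1r* 0.34 on the MSC array and 1.47 on the CD8 T array. *Ccr2* had the largest ratio, -3.96. The part of RNA of these cells in the CD8 T array was not tested.

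Granulocyte transcripts were measured well above background on both arrays, with a median ratio of -0.35, 5 of 21 at least 2-fold higher in MSCs and 6 in CD8 T cells. For this and the other counts of the paragraph, 20.8% and 12.9% of all genes passed 2-fold in those directions. *S100a8* had 7.21 on the MSC array and 6.99 on the CD8 T array, *S100a9* 8.40 on the MSC array and 8.38 on the CD8 T array and *Csf3r*, the receptor of granulocyte colony-stimulating factor, 6.37 on the MSC array and 6.72 on the CD8 T array. *Il1b* (-2.37) and *Stfa2* (-1.90) had the largest ratios. The sign of the granulocyte median turned to 0.10 with the authors' series matrix values, that of *S100a8* to -0.02 and of *S100a9* to -0.20 with the median shift, and that of *Csf3r* to 0.27 under quantile normalization. Progenitor and mast cell genes had a median of 1.21, 8 of 14 at least 2-fold higher in MSCs, with *Kit* at -1.18, *Gata2* at 3.48 and *Tal1* at 5.71. *Cd34*, shared by progenitors and fibroblasts, was at 4.68. Endothelial genes were dim on both arrays, with a median level of -3.12 in MSCs against -2.13 in CD8 T cells. 5 of 18 were at least 2-fold higher in MSCs and 8 in CD8 T cells. *Cdh5* of endothelial junctions had -2.94 on the MSC array and -1.99 on the CD8 T array, *Kdr* -3.33 on the MSC array and -0.13 on the CD8 T array and *Tek* was at least 16.1-fold higher in MSCs. Adipocyte genes (-0.13, 3 of 12 higher in MSCs and 3 in CD8 T cells), Schwann cell genes (0.37, 3 and 3 of 11) and keratinocyte genes (1.65, 6 and 2 of 11) pointed both ways. Medians of the endothelial (2.55), adipocyte (0.53), Schwann cell (-0.23) and keratinocyte (-0.36) lists had the other sign under at least 1 alternative, whose value is given. Among them *Car3* had 6.39, *Cfd* was at least 11.6-fold higher in CD8 T cells, *Pmp22* had 3.92, *S100b* was at least 11.1-fold higher in MSCs, *Krt5* had 4.13 and *Krt14* 2.66.

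Ribosomal and respiratory chain genes differed little. Of 30 ribosomal protein genes, 28 were within 2-fold, yet all 30 ratios were below 0 with the 75th percentile scaling, with a median of -0.74. *Rplp1* (-1.05) lay farthest from 0, *Rpl3* had -0.73, and *Rpl4*, at -0.36, turned to 0.35 under quantile normalization and 0.09 with the series matrix. All 23 respiratory chain genes were within 2-fold, with a median of -0.02 that took the other sign under quantile normalization (0.09) and with the series matrix (0.44), and *Ndufb8* and *Uqcrfs1* at 0.40 and -0.41 were the extremes. MHC class I presentation had a median of -0.79, with 4 of 17 at least 2-fold higher in CD8 T cells, against 12.9% of all genes. *B2m*, its light chain, was at 6.81 and 7.42, *H2-K1* at 6.62 and 7.57 and *Tap2* at a ratio of -1.55 or beyond, 1 of its 2 probes being not well above background in MSCs. *B2m* took the other sign under quantile normalization, at 0.10. Interferon-stimulated genes had a median of -0.52, with 11 of 27 at least 2-fold higher in CD8 T cells and 1 in MSCs. *Isg15* had 4.42 on the MSC array and 4.49 on the CD8 T array, *Ifit1* a ratio of -1.51, *Ifit3* -2.12 and *Oas3* -2.47. Glycolysis and hypoxia genes had a median of 0.04 that turned to -0.19 with the median shift and to -0.02 with genes above the median signal, and 18 of 24 were within 2-fold. *Adm*, which encodes adrenomedullin, had 2.10 on the MSC array and -1.75 on the CD8 T array, *Bnip3* 2.12 and *Slc2a1*, the glucose transporter Glut1, -0.78.

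To see how the cells could address each other, 50 ligand and receptor pairs were read. In 14 pairs the ligand was at least 2-fold higher in MSCs and the receptor at least 2-fold higher in CD8 T cells, in 1 pair the reverse held, in 13 both were higher in CD8 T cells and in 3 both in MSCs. The 50 ligands were at least 2-fold higher in MSCs for 22 and in CD8 T cells for 17, and the 42 receptors for 6 and 27. Of all genes 20.8% and 12.9% passed, and the pairs had been picked as signals between stroma and T cells. Some receptors are also on lists of other cells, such as *Cxcr2* (granulocyte), *Csf1r* and *Ccr2* (macrophage and monocyte) and *Kdr* (endothelial). Genes of those lists were measured on the CD8 T array too. Which cells of a sort carried the RNA of a ligand or receptor was not tested.

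Among chemokines, 6 of 14 pairs had the ligand higher on the MSC array and the receptor higher on the CD8 T array. *Ccl19*, with 4.87 on the MSC array and 0.55 on the CD8 T array, faced its receptor *Ccr7*. *Ccl2* (4.76 on the MSC array and 1.20 on the CD8 T array) and *Ccl7* (3.64 on the MSC array and -0.52 on the CD8 T array) faced *Ccr2*, which had -2.77 on the MSC array and 1.19 on the CD8 T array. *Cxcl1* (3.84) and *Cxcl5* (4.92) attract granulocytes, and their receptor *Cxcr2* had -1.15. *Cx3cl1* had 2.80 and *Cx3cr1* -3.59. *Cxcl12* was far higher in MSCs, 3.40 on the MSC array and -0.71 on the CD8 T array, whereas its receptor *Cxcr4* was close to equal, -0.62. The ligands of *Cxcr3* did not separate the populations, since *Cxcl9* had 2.33 on the MSC array and 2.18 on the CD8 T array and *Cxcl10* 2.46 on the MSC array and 2.17 on the CD8 T array, and *Cxcl9* turned to -0.08 with the median shift. *Cxcl16* (-0.08, and 0.37 with the series matrix) was likewise near equal while its receptor *Cxcr6* had -7.45. *Ccl3* (-3.32), *Ccl4* (-3.81) and *Ccl5* (-6.32) were higher in CD8 T cells. *Xcl1* was high in CD8 T cells, and its receptor *Xcr1* of dendritic cells was at -3.21 there and not well above background in MSCs.

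Of the cytokines and growth factors, *Il6* (3.80), *Il33* (4.12), *Fgf7* (4.90), *Igf1* (4.44), *Tgfb3* (3.43), *Csf1* (2.41), *Vegfa* (1.93) and *Pdgfa* (2.06) were higher in MSCs, and *Il7*, *Kitl* and *Hgf*, not well above background in CD8 T cells, were at least 2.03-fold, 2.28-fold and 3.09-fold higher. *Il7*, which keeps T cells alive, was dim in MSCs too, at -4.54. The 3 probes of *Kitl* were unlike, with bounds of 0.20, 0.25 and 3.12 as log2 ratios. *Pdgfb* gave the 1 pair that ran from CD8 T cells to MSCs, with -3.57 on the MSC array and 1.46 on the CD8 T array for the ligand and 1.74 on the MSC array and -2.77 on the CD8 T array for *Pdgfrb*. *Ifng* had a receptor present on both, *Ifngr1* at 3.27 in MSCs against 5.09 in CD8 T cells. *Tnf* had -2.16 and its receptor *Tnfrsf1a* 0.68, and *Tgfb1* (0.78), *Tgfbr2* (0.92) and *Il15* (0.72) did not reach 2-fold. *Fgfr1* (at least 2.86, with a flag on 1 array), *Il1rl1* (at least 2.02) and *Lifr* (1.28) were receptors higher in MSCs, *Il6ra* (-2.62) and *Flt3* (-4.04) in CD8 T cells. Only some probes of *Fgfr1* and *Il1rl1* were well above background in CD8 T cells, and those of *Il1rl1* ran from -0.21 to 3.84.

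Of 16 contact pairs, 7 had both genes higher in CD8 T cells. *Cd274*, which encodes PD-L1, had -1.38 on the MSC array and 1.42 on the CD8 T array, and *Pdcd1lg2* (PD-L2) had a ratio of -3.89, so that both ligands of PD-1 were on the same side as *Pdcd1*. *Cd80* (-1.64) and *Cd28* (-7.46) were paired in the same way. In 3 pairs the ligand was higher on the MSC array and the receptor higher on the CD8 T array. They were *Vcam1* (3.27) with *Itga4* (-1.36), *Lgals9* (1.57) with *Havcr2* (-4.99), and *Nectin2* (2.43) with *Tigit* (at least 26.6-fold). *Icam1* was nearly equal, -0.50 on the MSC array and -0.03 on the CD8 T array, and its receptor *Itgal* had -3.75. *Jag1* (2.47) and *Notch1* (1.28) were both higher in MSCs. *Fasl* was at 1.51 in CD8 T cells and not well above background in MSCs, while its receptor *Fas* was at -0.84 and -0.25.

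**Figure D4:**
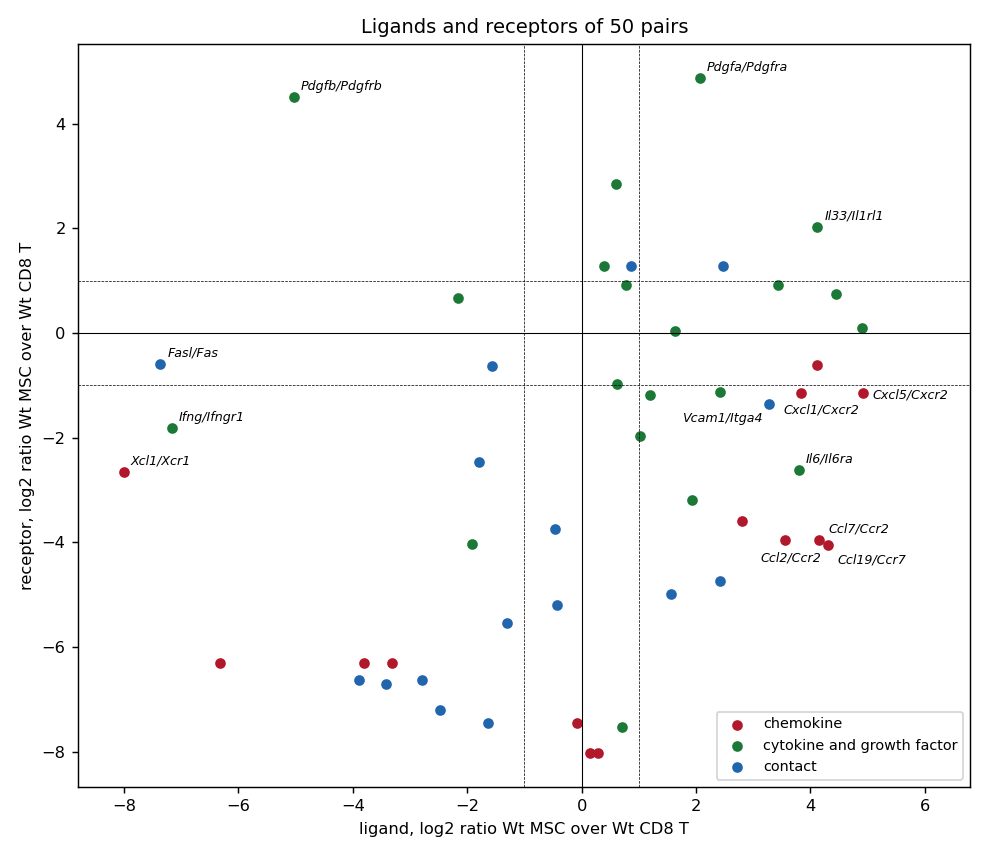
Ratios of the ligand (x axis) and the receptor (y axis) of 50 pairs, on the log2 scale as Wt MSC over Wt CD8 T. Each point is a pair, coloured by class, and dashed lines mark 2-fold. Pairs at the lower right have the ligand higher on the MSC array and the receptor higher on the CD8 T array, such as *Ccl19* (4.32) with *Ccr7* (-4.06).

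The *Sipa1*-/- pair, an MSC array and a CD8 T array from tumors of knockout mice of the same strain, age and day, gave the same comparison in other samples. *Sipa1*, the deleted gene, had a mean level of 2.62 on the MSC array and 2.56 on the CD8 T array of this pair, against 4.04 and 4.42 in the Wt pair. In it 4185 of 16629 genes (25.2%) were at least 2-fold higher in MSCs, 3007 (18.1%) were so in CD8 T cells, and the counts were 1681 (10.1%) and 567 (3.41%) at 8-fold. Of the 1117 genes at least 8-fold higher in Wt MSCs, 943 were so in the *Sipa1*-/- pair, which is 84.4% of the Wt genes and 56.1% of the *Sipa1*-/- genes. Of the 401 CD8 T genes, 305 were shared, 76.1% and 53.8%. The top genes held their side. *Acta1* had 7.85 in the *Sipa1*-/- pair, *Dcn* 4.25, *Cd8b1* -8.67 and *Gzmb* -6.82. *Tnxb* was not measured there. List medians of stromal and T-cell genes had the same sign in both pairs. They were 5.17 against 4.81 for fibroblast genes, 5.08 against 4.14 for matrix proteoglycans and glycoproteins and 2.79 against 1.70 for *Hox* genes. They were -5.68 against -5.96 for cytotoxic genes, -6.28 against -5.24 for the T-cell receptor complex, -3.55 against -4.60 for inhibitory receptors and -3.75 against -2.54 for naive and memory genes.

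The B-lineage median was -0.17 in the *Sipa1*-/- pair against 3.73 in the Wt pair, with *Cd79b* at -0.91 against 3.20, although *Igll1* had a ratio of 3.68. Of the 1117 genes at least 8-fold higher in Wt MSCs, 52 were under 2-fold in the *Sipa1*-/- pair and 10 of these were on the B-lineage list. *Chchd10* (3.34 in the Wt pair), *Cd79b*, *Blnk* and *Pou2af1* were among the brightest of the 52 in Wt MSCs and were named after their values were seen. The pan-leukocyte median was -3.68 against -1.61, farther toward CD8 T cells in the *Sipa1*-/- pair. DNA replication (-0.87 against 0.87) and mitosis (-0.91 against 0.98) took opposite signs, and so did granulocyte (1.33 against -0.35) and adipocyte genes (1.69 against -0.13). With 1 array for each cell type and genotype the genotype cannot be told apart from the sort of that array.

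**Figure D5:**
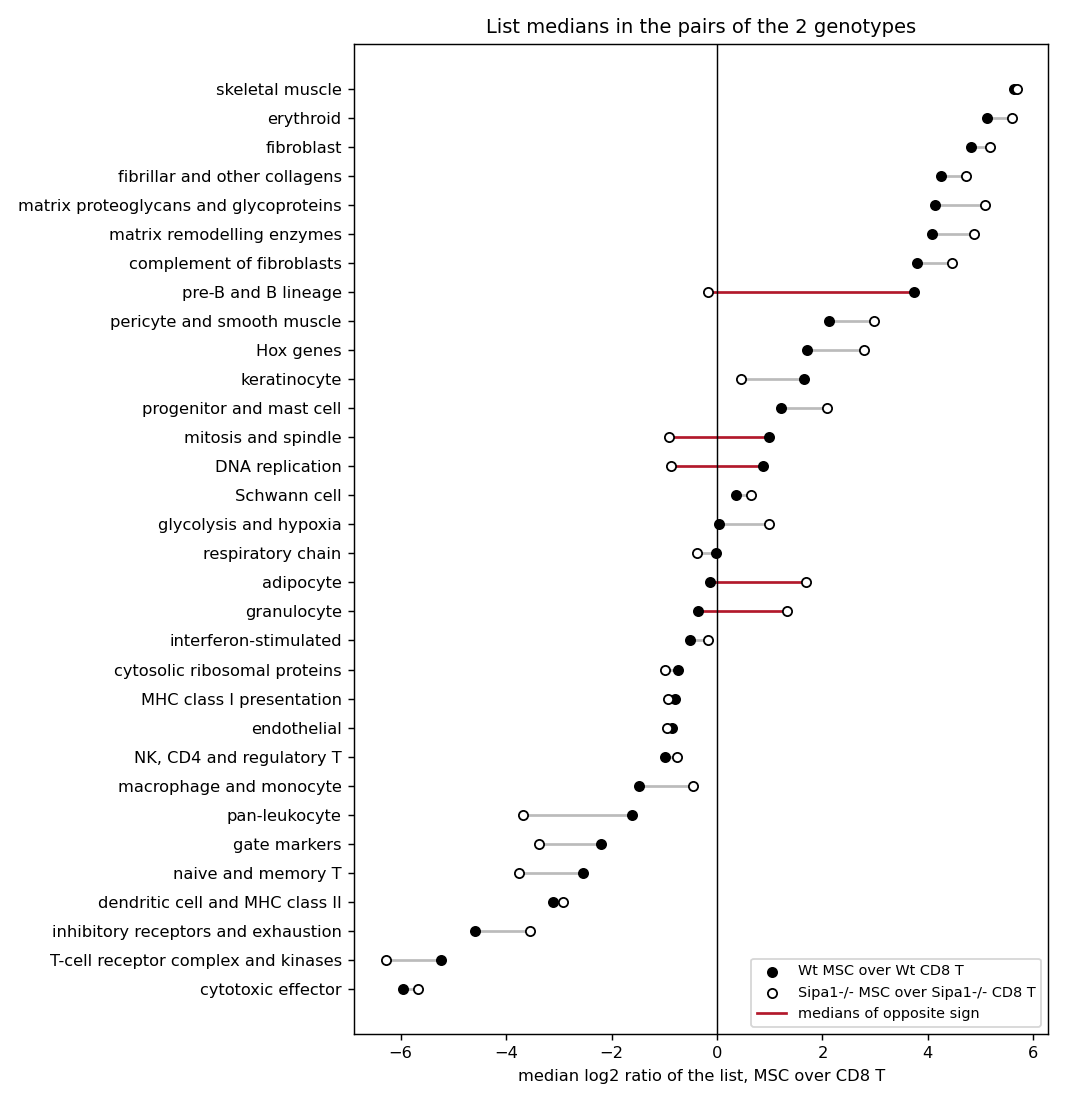
Median log2 ratio of MSC over CD8 T for each of 32 lists, in the Wt pair (filled) and the *Sipa1*-/- pair (open), joined by a line that is red where the signs are opposite. The B-lineage list spans the widest gap, from 3.73 to -0.17.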

How the data were processed

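RNA of sorted MSCs and CD8 T cells was labelled with Cy3 and hybridized to Agilent one-color mouse arrays (62976 spots, 59305 of them not controls). The deposited intensities are processed signals that Feature Extraction had corrected for background, with no normalization between arrays. The labels name version 9.1 of the software and the file headers 12.0.3.1. The authors' series matrix holds the same intensities multiplied by 1 constant per array (1.13 for Wt MSCs and 0.941 for Wt CD8 T cells), on a linear scale, neither centred nor turned, with medians of 41.0 and 25.5 on the 2 Wt arrays.

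Groups were taken from sample titles. Signals were shifted by the 75th percentile on the log2 scale. Spots were kept where they were well above background and free of flags for uneven spots or background on at least 1 of the 2 arrays. Spots of a probe were averaged, then probes of a gene. A dim value was raised to the lowest signal well above background on its array (-5.86 and -5.56 on the log2 scale). In 334 genes a probe kept its value in spite of an uneven-spot or uneven-background flag on 1 array. Accessions matched a symbol in a RefSeq table of assembly GRCm38.p6 for 57.6% of spots, which gave 22911 symbols, and 13059 probes used had none. Of 5958 genes with more than 1 probe, 9 had probes at least 2-fold to opposite sides.

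Each count is of genes past 2-fold or 8-fold. The lists (662 genes, 632 measured, some in several lists) and members were chosen with earlier results of these data known. Named genes are the gate genes, the first 3 of each list and its 2 largest ratios, the 10 largest ratios and 5 largest bounds in each direction without clone or predicted names, the ligands and receptors, the 3 longest runs of neighbours in each direction (ties by the larger median ratio) and *Sipa1*. *Cd3e*, *Cd4* and *Pdgfra* were counted with the gate genes. Alternatives were flags on both arrays or none, genes above the median signal, no floor, median shift, quantile normalization, the series matrix, normexp (offset 50, on the median spot signal) and the brightest probe. Some genes that this rule names are not reported here. Scripts were tested on simulated data. R 4.3.3 with limma 3.58.1 served for normexp, and all else ran in Python 3.11.15 with pandas 2.3.3, numpy 2.4.6 and matplotlib 3.10.9.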

Additional observations from a re-analysis of the deposited data

Results flagged for a closer look

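The ratio of MSCs over CD8 T cells had opposite signs in the *Sipa1*-/- pair and the Wt pair, each farther from 0 than the spot noise of 0.0317 alone, for 5 lists and 25 of the named genes. Each pair has 1 array per cell type and the difference was not tested. Spot noise leaves out the scaling, which by itself turned the Wt sign of the granulocyte and adipocyte medians and of *Cxcl16*, *Isg15*, *Rgs5* and *Sipa1* with the series matrix, and of *Mcm4* with the median shift. In each statement the *Sipa1*-/- value comes first. The lists were pre-B and B lineage (-0.17 against 3.73), DNA replication (-0.87 against 0.87), mitosis and spindle (-0.91 against 0.98), granulocyte (1.33 against -0.35) and adipocyte (1.69 against -0.13).

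Of B-lineage and leukocyte genes, these were *Cd79a* -0.0456 against 4.33, *Cd79b* -0.91 against 3.20 and *Cd37* -3.03 against 0.49. Of cell-cycle genes they were *Cdk1* -0.85 against 0.83, *Cenpf* -0.89 against 1.24, *Mcm2* -1.01 against 0.62, *Mcm3* -1.66 against 0.47, *Mcm4* -1.30 against 0.19, *Mki67* -0.52 against 1.16, *Top2a* -1.23 against 0.98, *Ttk* -0.85 against 1.60 and *Uhrf1* -1.16 against 1.61. Of granulocyte and adipocyte genes they were *Cxcr2* 0.42 against -1.15, *Stfa2* 0.24 against -1.90, *Adipoq* 1.70 against -0.88 and *Cfd* 0.34 against -3.53, the last 2 not well above background in Wt MSCs or in *Sipa1*-/- CD8 T cells, so that all 4 of their values are bounds. Ligands and receptors were *Cxcl16* 0.62 against -0.08, *Fas* 0.15 against -0.59, *Pvr* 0.54 against -1.31 (in part a bound) and *Tgfb1* -1.54 against 0.78. The others were *Isg15* 1.23 against -0.07, *Ndufb8* -0.23 against 0.40, *Rgs5* 2.97 against -0.05, *Slc2a1* 1.04 against -0.78 and *Sipa1* 0.0652 against -0.38, the last being the gene deleted in one of the pairs.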

How the results depend on the processing

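No paired analysis was possible because each group had 1 array and the result comes from no test. Counts are given in the order 2-fold higher in MSCs, 2-fold higher in CD8 T cells, and the same at 8-fold, against 3406, 2106, 1117 and 401. With normexp background correction they were 2021, 1369, 427 and 201, and with genes above the median signal alone, which tests 8188 genes, 1023, 1012, 360 and 176. With the series matrix values, which raise the median of all genes by 0.45, the count of 2-fold genes in CD8 T cells was 1286. The shift to medians lowered that median by 0.23. The other counts, and all 4 in the other settings, stayed within 1.5 times.

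The median of keratinocyte genes turned to -0.0681 with no flags and to -0.36 with genes above the median signal, and *Acta2* turned to -0.70 with its brightest probe. No other list median or named gene past 2-fold changed sign in the 9 alternatives where it was measured. The cause was not tested. Of the 208 named genes past 2-fold, 188 stayed past it with normexp, which moved a named ratio by up to 3.02 (log2), and *Myh8* was 3.37 with no flags. Signal over background limits the faintest genes.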

Other observations

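Small nuclear RNAs were looked at after their values were seen, because 3 U1 genes were among the brightest genes at least 8-fold higher in CD8 T cells. All 6 measured *Rnu* genes were at least 2-fold higher in CD8 T cells, 5 of them at least 8-fold, against 12.9% and 2.45% of all genes. The 3 U1 genes that prompted the look are among the 6. *Rnu1a1* had levels of 4.59 in MSCs against 7.65 in CD8 T cells, *Rnu1b1* 4.27 and 7.34 and *Rnu1b6* 4.32 and 7.38. *Rnu2-10*, a U2 gene, had a ratio of -3.24, *Rnu3b1*, a U3 gene, -3.06 and *Rnu12* -1.33. U1 genes are near-identical copies and were not read apart.

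The 32 lists covered 158 of the 1117 genes at least 8-fold higher in MSCs and 86 of the 401 in CD8 T cells. The other 959 and 315 genes were on no list, and 28 on each side had clone or predicted names.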
